A study of Mus musculus with 4 samples.

Results

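The stathmin and ELAV gene families and the neuronal cytoskeleton genes Tubb3 and Map2 were followed in PS-RRA-mRNA-Seq, the sequencing of mRNAs that remained in polysomes after a ribosome run-off. The 10 genes were taken by symbol from the count table of 53465 genes: Stmn1, Stmn2, Stmn3 and Stmn4, Elavl1, Elavl2, Elavl3 and Elavl4, Tubb3 and Map2. Each neuronal gene was set against its ubiquitous relative, Stmn1 for the stathmins, Elavl1 for the ELAV genes, Tubb5 for Tubb3 and Map4 for Map2. The study asked which messages stay bound to stalled ribosomes in HD-homo cells. HD-homo cells (STHdhQ111/Q111, 2 libraries) and control cells (STHdhQ7/Q7, 2 libraries) are immortalized mouse striatal lines labelled C57/BL6, with a knock-in Htt exon 1 that encodes 111 glutamines in HD-homo and 7 in control. Both lines received harringtonine (2 µg/ml for 2 min), which stops new initiation while elongating ribosomes run off, followed by cycloheximide. The 2 libraries of a group came from 1 line, so the effect of the repeat and that of any further difference between the lines cannot be told apart, and p-values measure only the spread between libraries. Libraries of total RNA were not analysed here, so less mRNA in the cells and less of it in polysomes cannot be told apart, nor can fewer cells holding an mRNA and less mRNA per cell.

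Stathmins bind tubulin dimers and promote the disassembly of microtubules. Stmn1 is cytosolic and found in many dividing cells, whereas Stmn2 (SCG10), Stmn3 (SCLIP) and Stmn4 (RB3) are neuronal and carry an added N-terminal stretch that anchors them to membranes of the Golgi and growth cone. ELAV (Hu) proteins bind AU-rich elements and stabilise the mRNAs that hold them. Elavl1 (HuR) is ubiquitous, and Elavl2 (HuB), Elavl3 (HuC) and Elavl4 (HuD) are markers of neurons and their precursors. Tubb3 encodes the neuron-enriched class III beta-tubulin and Map2 a microtubule-associated protein of dendrites.

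The counts summed to 12372090 and 14074182 in the HD-homo libraries and to 14122706 and 15472808 in the control libraries. Libraries were scaled with TMM, edgeR's trimmed mean of log ratios, and HD-homo was tested against control with the quasi-likelihood test of edgeR over 12961 genes with enough counts, with Benjamini-Hochberg adjustment over all of them and a threshold of 0.05. Levels are given as CPM, the counts of a gene relative to the TMM-scaled library size,, and SD and n refer to 2 libraries per group. Replicates differed by more than sampling noise, and the chi-square over genes divided by its degrees of freedom was 30.5 in HD-homo and 29.0 in control. A fit with a library left out holds a single library in a group, so its p-values rest little on the spread between replicates. Of the neuron markers Rbfox3, Snap25, Syt1, Syp, Syn1, Nefl, Nefm and Gap43, the first 3 had 0 counts in all 4 libraries, and the whole list summed to 1.71 and 2.34 CPM in HD-homo against 11.2 and 11.3 CPM in control. The striatal neuron genes Drd1 and Drd2 were also at 0 counts in all 4 libraries. Of the 9 striatal projection neuron markers, 4 were tested, all at low levels. Adora2a, an adenosine receptor gene, was counted 7 and 3 times in HD-homo, against 45 and 26 times in control, and was lower (log2 fold change -2.66, adjusted p = 0.00286, edgeR). Pde10a was also called lower (-1.68) and Ppp1r1b, which encodes DARPP-32, higher (2.19), but both calls were lost in DESeq2 and in 3 of the 4 fits with a library left out, and Penk did not pass. Penk passed as higher with no filter on low counts (1.19, adjusted p = 0.00654, edgeR) and with the replicate number as a block (1.07, adjusted p = 0.00655, edgeR). The polysome fractions of the lines labelled striatal cells thus held some striatal transcripts at low counts. No reads of the neuronal markers Rbfox3, Snap25 and Syt1 were counted in them at this depth.

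A count depends on whether reads can be placed on 1 member of a family, so coding stretches of the paralog pairs that the results turn on are shown, from the GRCm38 transcripts of GENCODE, with the longest stretch of identical bases in capitals and positions counted from the first coding base.
Stmn2, bases 304 to 466: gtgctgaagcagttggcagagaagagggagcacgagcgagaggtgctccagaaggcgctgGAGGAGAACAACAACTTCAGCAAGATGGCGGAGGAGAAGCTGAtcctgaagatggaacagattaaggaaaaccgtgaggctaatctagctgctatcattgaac
Stmn1, bases 202 to 364: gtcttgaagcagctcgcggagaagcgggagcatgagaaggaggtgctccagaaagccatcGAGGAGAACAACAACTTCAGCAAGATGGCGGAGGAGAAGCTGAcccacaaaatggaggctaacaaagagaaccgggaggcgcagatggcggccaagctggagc
Elavl2, bases 367 to 505: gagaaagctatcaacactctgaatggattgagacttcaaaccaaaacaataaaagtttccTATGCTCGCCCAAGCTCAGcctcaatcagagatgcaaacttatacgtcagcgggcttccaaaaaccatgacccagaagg
Elavl1, bases 223 to 361: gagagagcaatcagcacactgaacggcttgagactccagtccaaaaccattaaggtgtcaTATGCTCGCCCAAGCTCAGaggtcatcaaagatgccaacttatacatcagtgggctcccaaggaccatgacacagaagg
The coding sequences of Stmn2 and Stmn1 were identical at 316 of 429 aligned bases (73.66%), and those of Elavl2 and Elavl1 at 719 of 978 (73.52%). The longest identical stretch was 43 bases in the stathmin pair and 19 bases in the ELAV pair. The study's methods give paired reads of 40 bases for its RNA-Seq of total RNA. The read length of the polysome libraries is not given there, so words of 40 bases are only a guide. Of all 40-base words in the Stmn2 transcripts, 1.09% also occurred in transcripts of another gene, and for Elavl2, Stmn3, Stmn4, Elavl4 and Map2 there were 0 such words. Stmn1 was the exception with 20.6%, of which 371 of 403 words lay in the processed copy Gm11223. Gm11223 itself had 91 and 84 counts in HD-homo and 79 and 55 in control, so in the placement of reads the Stmn1 level is the least certain of the 10.

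Of the 10 genes, 6 had enough counts for the test. Stmn2 and Elavl2 were lower in HD-homo, 0 were higher, and Stmn1, Elavl1, Tubb3 and Map2 did not pass. Over all genes tested, 10.9% were called lower and 10.4% higher. The other 4 genes, Stmn3, Stmn4, Elavl3 and Elavl4, had at most 9 counts in any library and were not tested. In Stmn2 and Elavl2 both HD-homo libraries lay below both control libraries, whereas the groups overlapped in the other 4 tested genes. Such a separation in either direction was found in 57.2% of all tested genes.

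**Figure D1:**
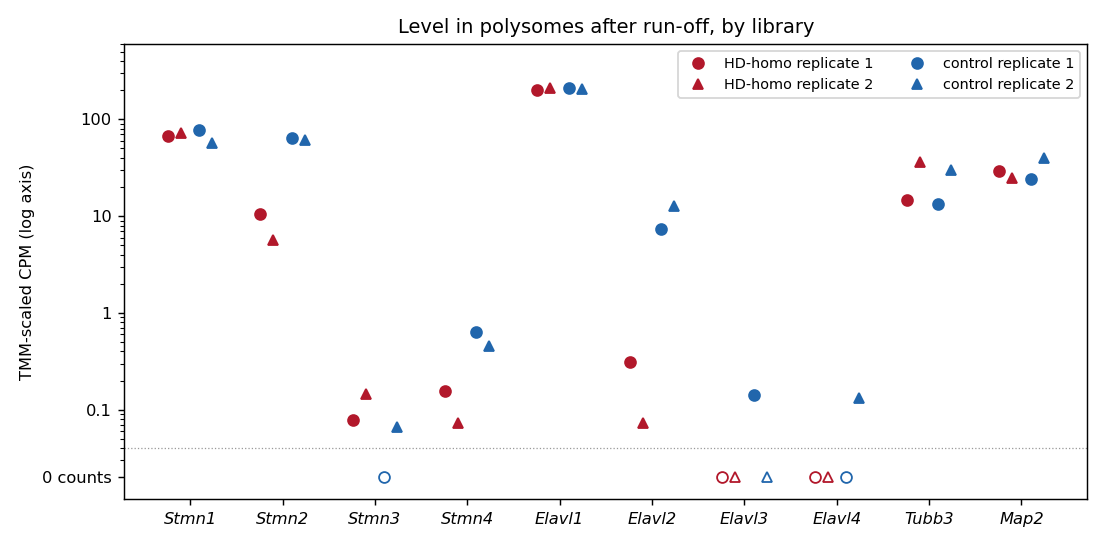
Level of each of the 10 genes in each library, in TMM-scaled CPM on a log axis, with HD-homo in red to the left and control in blue to the right of each gene, and open symbols for 0 counts. Stmn2 and Elavl2 are lower in both HD-homo libraries, while Stmn1 and Elavl1 lie at like levels in all 4 libraries.

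Stmn2 (ENSMUSG00000027500, GRCm38 chromosome 3, 8509360 to 8561606, plus strand) was counted 135 and 78 times in HD-homo, against 903 and 933 times in control. These counts correspond to 10.5 and 5.70 CPM in HD-homo and to 63.9 and 61.3 CPM in control. The control libraries lay close to each other, HD-homo replicate 2 was lower than HD-homo replicate 1, and the groups did not overlap. The log2 fold change was -2.95 (standard error 0.29, 95% interval -3.53 to -2.38, adjusted p = 6.31e-06, edgeR), or 7.73-fold lower in HD-homo. In the order of p over all tested genes Stmn2 stood at rank 355.

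Stmn1 (ENSMUSG00000028832, chromosome 4, 134468320 to 134473843, plus strand), the ubiquitous stathmin, was at 67.5 and 72.0 CPM in HD-homo and at 77.0 and 56.9 CPM in control. The HD-homo libraries lay between the control libraries. Its log2 fold change was 0.06 (standard error 0.22, 95% interval -0.37 to 0.49, adjusted p = 0.896, edgeR). Stmn3 was counted 1 and 2 times in HD-homo and 0 and 1 times in control, at or under the floor of 3 counts over a group in both groups, so no fold was computed. Stmn4 was counted 2 and 1 times in HD-homo and 9 and 7 times in control. Its ratio of control over HD-homo was 4.82 (95% counting interval 1.38 to 25.8), with 7.46 (1.16 to 313) without HD-homo replicate 1. The interval held 1 when HD-homo replicate 2 (0.823 to 31.4) or control replicate 1 (0.929 to 24.4) was left out. Fitted with no filter on low counts, Stmn4 did not pass the test (log2 fold change -2.17, standard error 0.94, adjusted p = 0.115, edgeR). Counting intervals cover counting error only, since reads without molecular identifiers are not independent molecules.

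Elavl2 (ENSMUSG00000008489, chromosome 4, 91250763 to 91400785, minus strand) was counted 4 times and 1 time in HD-homo, against 104 and 192 times in control. On the CPM scale it was at 0.31 and 0.07 in HD-homo and at 7.36 and 12.6 in control. Both HD-homo libraries were close to the level of a single count, and control replicate 2 was higher than control replicate 1. The log2 fold change was -5.66 (standard error 0.54, 95% interval -6.72 to -4.60, adjusted p = 4.35e-06, edgeR). The ratio of control over HD-homo was 53.5 (95% counting interval 22.7 to 166), with 138 (24.6 to 5470) without HD-homo replicate 1 and 32.4 (12.5 to 120) without HD-homo replicate 2. The size of the fold therefore rests on which HD-homo library is kept, and the direction did not.

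Elavl1 (ENSMUSG00000040028, chromosome 8, 4285382 to 4325413, minus strand) was at 203 and 210 CPM in HD-homo and at 210 and 206 CPM in control. The groups overlapped, with SDs of 5.24 CPM in HD-homo and 2.74 CPM in control (n = 2 each). The log2 fold change was -0.01 (standard error 0.20, 95% interval -0.39 to 0.38, adjusted p = 0.985, edgeR), and the value turned positive with library total scaling. Elavl3 had 0 and 0 counts in HD-homo and 2 and 0 in control, and Elavl4 had 0 and 0 counts in HD-homo and 0 and 2 in control. These counts lie under the floor of 3 counts over a group, which is 0.113 CPM in HD-homo and 0.102 CPM in control, so neither gene was detectable as different at this depth. Elavl1 overlaps Ccl25, which had between 91 and 161 counts per library, and the strand setting of the counting is not given in the sources used here.

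Tubb3 (ENSMUSG00000062380, chromosome 8, 123411424 to 123422015, plus strand) was counted 190 and 499 times in HD-homo and 187 and 457 times in control, which is 14.8 and 36.4 CPM in HD-homo and 13.2 and 30.0 CPM in control. The second library was the higher one in each group, by 2.47-fold in HD-homo and 2.27-fold in control. Of the 12961 tested genes, 19 (0.147%) had a difference between replicates at least this large with the same direction in both groups. The log2 fold change between groups was 0.24 (standard error 0.41, 95% interval -0.56 to 1.04, adjusted p = 0.755, edgeR). It was 0.95 without control replicate 2, where Tubb3 was called higher. Leaving out HD-homo replicate 2 gave -0.55. Hence the Tubb3 value depended on which libraries were compared. Tubb5, the ubiquitous beta-tubulin, was at 1600 and 2807 CPM in HD-homo and at 2289 and 3465 CPM in control, also with the higher level in replicate 2 of each group (log2 fold change -0.38, standard error 0.29, adjusted p = 0.433, edgeR). Among the 14 tested genes of the tubulin list, 9 were higher in replicate 2 in both groups, against 30.5% of all tested genes. Whether the replicate number marks a shared day or batch is not given in the labels. The call of Tubb5 also depended on 1 library, since it passed at -0.85 without HD-homo replicate 2 (adjusted p = 0.00563, edgeR).

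Map2 (ENSMUSG00000015222, chromosome 1, 66175273 to 66442583, plus strand) was at 29.0 and 24.8 CPM in HD-homo and at 24.2 and 39.7 CPM in control. The groups overlapped, with control replicate 2 the highest library. Its log2 fold change was -0.25 (standard error 0.27, 95% interval -0.77 to 0.27, adjusted p = 0.594, edgeR), and it was 0.15 without control replicate 2. Map4, the microtubule-associated protein of most non-neuronal cells, was at 160 and 244 CPM in HD-homo and at 102 and 186 CPM in control (log2 fold change 0.49, standard error 0.28, adjusted p = 0.287, edgeR). The Map4 value was 0.98 without control replicate 2 and 0.77 without HD-homo replicate 1, so it depended on the libraries compared.

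**Figure D2:**
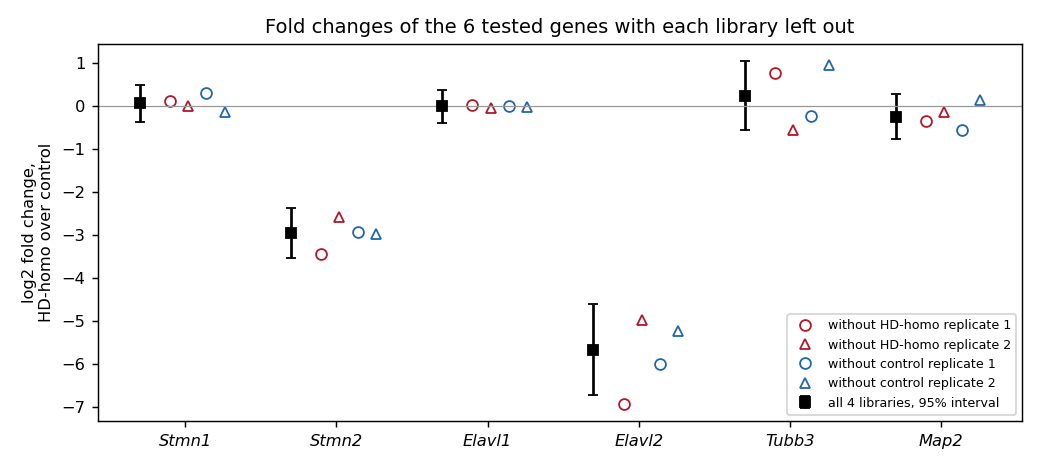
Log2 fold change of HD-homo over control for the 6 tested genes, with all 4 libraries (squares, with 95% intervals) and with 1 library left out (open symbols, red for an HD-homo and blue for a control library). Stmn2 stays between -3.44 and -2.57 and Elavl2 between -6.92 and -4.97, whereas Tubb3 runs from -0.55 to 0.95 across 0.

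Mean levels of the 6 tested genes were also divided by the length of annotated exon. In HD-homo their order was Stmn1 (36.3 CPM per kilobase), Elavl1 (19.9), Tubb3 (13.7), Map2 (1.63), Stmn2 (1.45) and Elavl2 (0.023). The untested Stmn3 (0.099) and Stmn4 (0.060) lay above Elavl2 there, on 3 counts each over the group. In control the order of mean levels was Stmn1 (34.8 CPM per kilobase), Elavl1 (20.1), Tubb3 (11.6), Stmn2 (11.2), Map2 (1.94) and Elavl2 (1.20). In control, Tubb3 and Stmn2 did not differ beyond their spread, since Tubb3 ran from 7.08 to 16.1 CPM per kilobase around the Stmn2 values of 11.4 and 10.9. In HD-homo, the Stmn2 values of 1.87 and 1.02 CPM per kilobase overlapped those of Map2, at 1.76 and 1.51.

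A ratio of 2 genes inside 1 library does not depend on library scaling. The log2 ratio of Stmn2 over Stmn1 counts was -2.68 and -3.65 in HD-homo and -0.27 and 0.11 in control, with 0.5 counts added to each gene. In control the counts of both genes were thus nearly equal, and the difference of HD-homo minus control was -3.08 (standard error 0.52). The log2 ratio of Elavl2 over Elavl1 was -9.18 and -10.91 in HD-homo and -4.83 and -4.03 in control, a difference of -5.62 (standard error 0.95). With 2 counts added in place of 0.5 this difference was -4.92, and it ran from -6.48 to -4.75 when a library was left out, with HD-homo replicate 1 and HD-homo replicate 2 at the ends. The groups were also apart in Stmn4 over Stmn1 (-2.05, standard error 0.46, or -1.45 with 2 counts added) and Map2 over Map4 (-0.73, standard error 0.43), and in the opposite direction in Tubb3 over Tubb5 (0.63, standard error 0.38). The ratios with Stmn3, Elavl3 and Elavl4 overlapped between groups and rest on 0 to 2 counts per library of the neuronal gene. With 2 libraries in each group an exact two-sided permutation test has a smallest p of 0.33. It was the p of the 5 pairs without overlap (0.53 after adjustment over the 8 pairs), so no pair could pass by this test. In CPM the groups were apart in 57.2% of all tested genes, and no such share was computed for ratios.

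**Figure D3:**
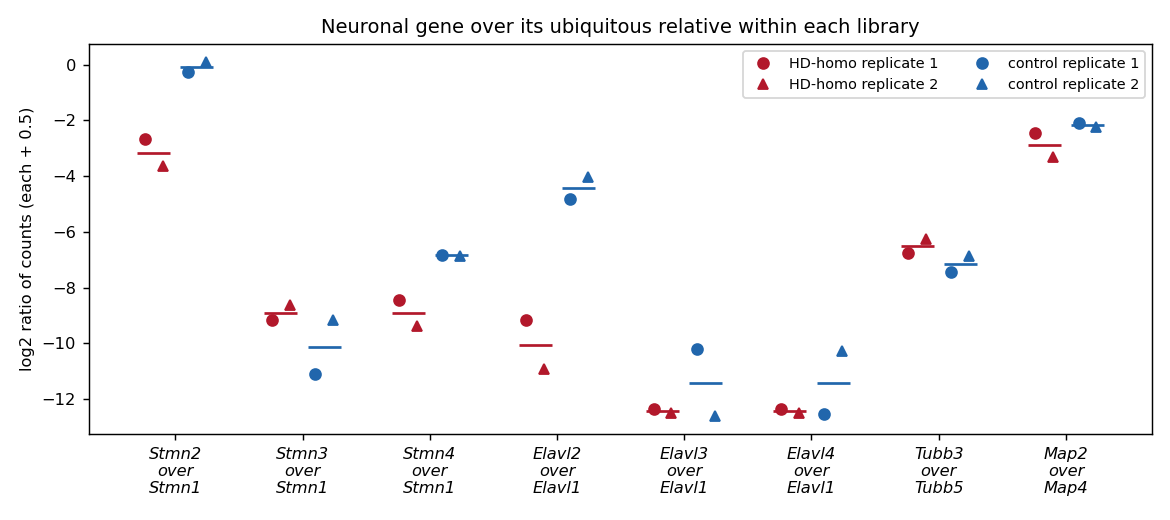
Log2 ratio of counts (each with 0.5 added) of a neuronal gene over its ubiquitous relative in each library, with horizontal lines at the group means, HD-homo in red at the left and control in blue at the right of each pair. Stmn2 over Stmn1 lies at -2.68 and -3.65 in HD-homo against -0.27 and 0.11 in control.

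Within a family, the make-up of each library was also expressed as a share of the family's counts per kilobase of exon. Stmn2 made up 5.05% and 2.63% of the stathmin family in HD-homo, against 22.0% and 26.8% in control, and Stmn1 made up the greatest part of the remainder. Elavl2 made up 0.191% and 0.0433% of the ELAV family in HD-homo, against 4.18% and 7.08% in control. Tubb3 was a minor beta-tubulin in every library, at 0.751% and 1.19% in HD-homo and 0.527% and 0.878% in control. Tubb5 held the greatest share, at 45.6% and 51.6% in HD-homo and 51.2% and 56.9% in control. Tubb2b, a beta-tubulin of neurons and their progenitors, was at 0.261% and 0.354% in HD-homo, against 2.07% and 2.03% in control. Among alpha-tubulins, Tuba1a, the form abundant in developing neurons, held 27.7% and 28.6% in HD-homo, against 58.9% and 57.7% in control. Tuba1a and Tubb2b counts are uncertain, since 74.9% of the 40-base words of Tuba1a also occurred in other genes, mostly Tuba1c, and 39.9% of those of Tubb2b, mostly Tubb2a. In contrast, Tubb3 shared 1.02% of its words.

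**Figure D4:**
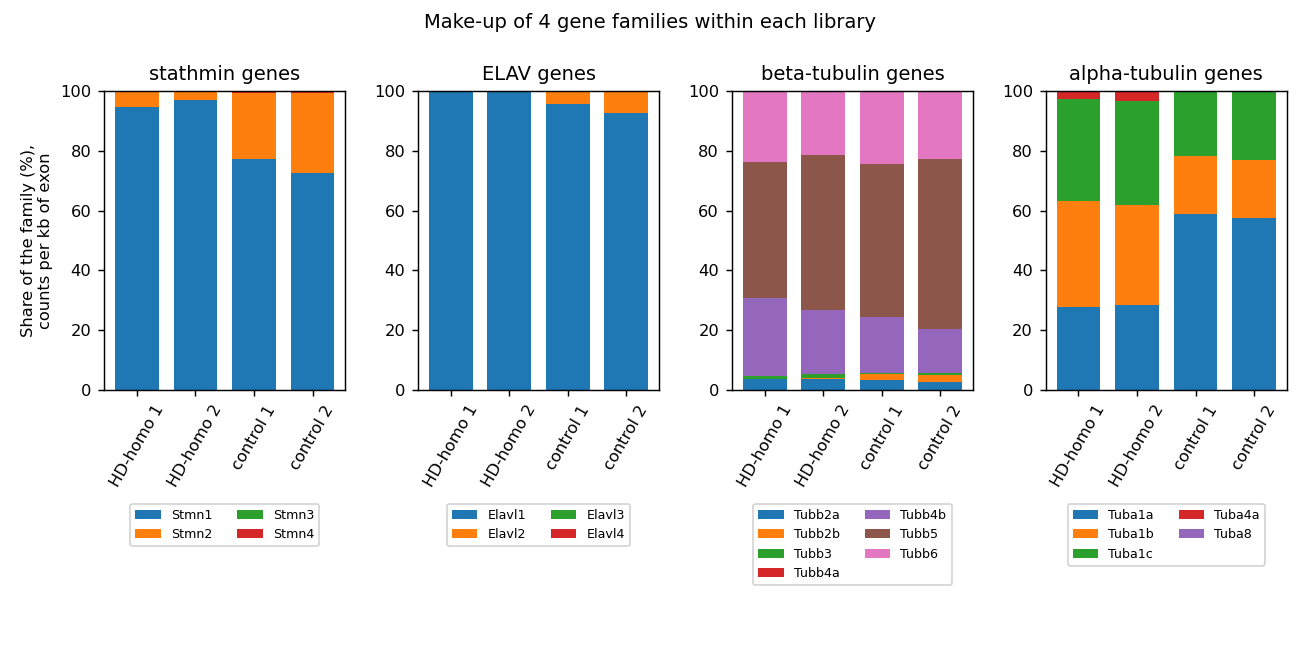
Share of each gene in its family within each library, in percent of the family's counts per kilobase of exon, for stathmins, ELAV genes, beta-tubulins and alpha-tubulins (HD-homo libraries at the left of each panel, control libraries at the right). The Stmn2 share is 5.05% and 2.63% in HD-homo against 22.0% and 26.8% in control, and that of Tubb3 stays at or below 1.19%.

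Promoters in the RefSeq table (GRCm38.p6, 250 bases before to 50 after a start) were matched for 7 of the 10 genes, Stmn3, Elavl1, Elavl2, Elavl3, Elavl4, Tubb3 and Map2. Elavl2 had 6 of them. They are shown for the ELAV pair, 1 of whose genes was lower in HD-homo while the other did not pass the test. The capitals mark the CCAAT box (CCAAT), the GC box (GGGCGG), the E-box CAGCTG and GGACAG, the right part of the site of the repressor REST, each searched on both strands together with TATAAA and the left part of the REST site (CAGCACC), and the matches did not overlap each other in these windows.
Elavl1, chr8:4325051-4325350, minus strand: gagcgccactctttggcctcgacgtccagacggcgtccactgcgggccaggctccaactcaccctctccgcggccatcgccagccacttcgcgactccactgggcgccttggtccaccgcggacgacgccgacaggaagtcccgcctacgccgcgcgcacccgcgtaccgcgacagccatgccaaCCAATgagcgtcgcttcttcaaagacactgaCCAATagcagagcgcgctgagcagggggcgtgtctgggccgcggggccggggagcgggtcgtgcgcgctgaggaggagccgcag
Elavl2, chr4:91371991-91372290, minus strand: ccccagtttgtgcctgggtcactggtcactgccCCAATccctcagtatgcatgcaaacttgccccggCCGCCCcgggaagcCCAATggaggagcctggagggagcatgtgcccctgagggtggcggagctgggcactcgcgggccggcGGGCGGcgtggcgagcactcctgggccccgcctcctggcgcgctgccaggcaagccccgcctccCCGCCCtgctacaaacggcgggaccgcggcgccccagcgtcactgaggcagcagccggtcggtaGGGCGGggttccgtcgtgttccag
Elavl2, chr4:91399935-91400234, minus strand: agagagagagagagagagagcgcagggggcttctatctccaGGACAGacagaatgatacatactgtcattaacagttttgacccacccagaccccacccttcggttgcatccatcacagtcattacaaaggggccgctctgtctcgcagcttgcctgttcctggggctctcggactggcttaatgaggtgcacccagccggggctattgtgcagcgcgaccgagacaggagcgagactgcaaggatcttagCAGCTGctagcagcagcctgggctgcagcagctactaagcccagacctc
The Elavl1 promoter held 39 CpG dinucleotides, more than 95.6% of the 32851 promoters in the table, and the 6 of Elavl2 held between 10 and 27, against a median of 7. CCAAT occurred in 37.4% of all promoters of this length, GGGCGG in 35.7%, CAGCTG in 16.3%, GGACAG in 22.2%, CAGCACC in 7.14% and TATAAA in 13.6%. Which of the start sites was used was not measured, because counts are per gene.

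The other tubulins moved in both directions. Of 19 tubulin genes besides Tubb3, 14 were tested, 2 were higher, 2 were lower and 10 did not pass, with a median log2 fold change of 0.06 (0.0017 over all tested genes). The called share was 28.6%, against 21.2% of all tested genes. Tuba4a was at 52.4 and 83.0 CPM in HD-homo, against 5.23 and 4.66 CPM in control (log2 fold change 3.77, standard error 0.29, adjusted p = 6.78e-07, edgeR). Tubb2b was at 6.30 and 13.3 CPM in HD-homo, against 63.9 and 85.3 CPM in control. Its log2 fold change was -2.93 (standard error 0.33, adjusted p = 1.68e-05, edgeR). Leaving out HD-homo replicate 2 moved it to -3.56. Tuba1a was at 279 and 371 CPM in HD-homo, against 975 and 1005 CPM in control (log2 fold change -1.60, standard error 0.22, adjusted p = 0.000131, edgeR). The gamma-tubulin gene Tubg2 was the other higher one, with 42 counts in HD-homo and 1 count in control. Its ratio of HD-homo over control was 46.5 (95% counting interval 7.90 to 1878), with 22.4 (3.80 to 904) without control replicate 2 and at least 8.03-fold without control replicate 1, where control had 0 counts and the floor of 3 counts was used. It shared 19.0% of its 40-base words with Tubg1, which did not pass.

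Of 21 microtubule-associated proteins besides Map2, 17 were tested, 1 was higher, 2 were lower and 14 did not pass (median log2 fold change 0.20). Hence 17.6% were called, against 21.2% of all tested genes. Map1b, which acts in growing axons, was at 1.48 and 1.46 CPM in HD-homo, against 8.91 and 11.0 CPM in control (log2 fold change -2.76, standard error 0.32, adjusted p = 2.86e-05, edgeR). The doublecortin-like kinases went apart. Dclk2 was at 3.03 and 3.87 CPM in HD-homo, against 18.7 and 19.1 CPM in control, whereas Dclk1 was at 64.3 and 61.0 CPM in HD-homo, against 26.0 and 29.6 CPM in control. Their log2 fold changes were -2.45 for Dclk2 and 1.17 for Dclk1 (adjusted p = 2.00e-05 and 0.00128, edgeR). Mapre2, an end-binding protein, missed the threshold (0.62, standard error 0.23, adjusted p = 0.0813, edgeR). Dcx, a marker of migrating neurons, had 0 counts in all 4 libraries, and Mapt, which encodes tau, had 2 counts in HD-homo and 7 in control. The higher count was 2 genes when either HD-homo replicate 1 or control replicate 2 was left out.

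Neurofilaments and related intermediate filaments were rare. Of 5 genes, 2 were tested and both were lower, against 10.9% called lower over all tested genes. With at least 10 counts in every library, 0 were lower. Ina had 12 and 5 counts in HD-homo against 27 and 44 in control. Prph had 7 and 5 counts in HD-homo against 20 and 31 in control. Their log2 fold changes were -1.89 for Ina and -1.91 for Prph (adjusted p = 0.0132 and 0.0126, edgeR). Both calls were lost in edgeR when control replicate 2 or HD-homo replicate 2 was left out, with adjusted p of 0.0989 and 0.112 for Ina and 0.149 and 0.0999 for Prph (edgeR). The call of Prph was also lost with all 4 libraries in DESeq2 (adjusted p = 0.0802), where 1 gene of the list was lower. The value of Ina was -2.68 when HD-homo replicate 1 was left out. Nefm, which was not tested, had 0 counts in HD-homo and 31 in control. Set against the floor of 3 counts for HD-homo, it was at least 9.34-fold lower there. This bound was 4.82-fold and 4.52-fold with HD-homo replicate 1 or 2 left out and 6.26-fold with control replicate 2 left out.

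Elavl1 shares its AU-rich targets with other proteins, and most of those did not pass. Of 11 such genes, all tested, 1 was higher, 1 was lower and 9 did not pass (median 0.01). The called share was 18.2%, against 21.2% of all tested genes. Zfp36l1, which promotes the decay of AU-rich mRNAs, was at 241 and 148 CPM in HD-homo, against 59.0 and 64.9 CPM in control (log2 fold change 1.65, standard error 0.25, adjusted p = 0.00023, edgeR). Khsrp, another decay-promoting protein, was at 88.9 and 101 CPM in HD-homo, against 167 and 186 CPM in control (-0.90, standard error 0.20, adjusted p = 0.00503, edgeR). The related genes Zfp36 and Zfp36l2 did not pass.

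Neuronal RNA-binding and splicing proteins and their relatives included more lower genes. Of 21 genes, 13 were tested, 1 was higher, 5 were lower and 7 did not pass, with a median log2 fold change of -0.50. The calls were 46.2% of those tested, against 21.2% over all tested genes. With at least 10 counts in every library, 3 were lower and 1 was higher. Khdrbs3, a splicing regulator of the STAR family, had 4 and 5 counts in HD-homo, against 557 and 711 in control, so that control exceeded HD-homo 127-fold after scaling (95% counting interval 66.9 to 279). Msi2, an RNA-binding protein of progenitor cells, was at 15.8 and 16.9 CPM in HD-homo, against 47.5 and 41.2 CPM in control (log2 fold change -1.44, standard error 0.23, adjusted p = 0.000413, edgeR). Srrm4, which drives the inclusion of neuronal microexons, had 0 counts in HD-homo and 25 and 17 in control, which is at least 12.7-fold lower when the floor of 3 counts stands for HD-homo (6.53-fold and 6.13-fold when HD-homo replicate 1 or 2 was left out and the floor covered 1 library). Celf4 was the higher gene, at 8.17 and 5.04 CPM in HD-homo, against 1.84 and 1.97 CPM in control (1.79, standard error 0.35, adjusted p = 0.00192, edgeR). Ptbp2, the neuronal form of the polypyrimidine tract protein, had a log2 fold change of -1.09 and Celf2 of -0.97. The ubiquitous forms Ptbp1, Celf1, Rbfox2 and Khdrbs1 did not pass, with log2 fold changes between -0.15 and 0.02. Without control replicate 1 or without control replicate 2 there were 2 higher genes.

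REST represses many neuronal genes in other cells, Stmn2 among them. Rest was at 24.8 and 23.9 CPM in HD-homo and at 18.7 and 25.1 CPM in control (log2 fold change 0.15, standard error 0.24, 95% interval -0.33 to 0.63, adjusted p = 0.744, edgeR). The list of 14 genes of REST and its partners, all tested, had 2 higher, 1 lower and 11 that did not pass (median -0.08). With 21.4% called, the list lay near the 21.2% of all tested genes. The phosphatase gene Ctdspl was higher (1.08, standard error 0.24, adjusted p = 0.00412, edgeR), at 44.8 and 37.2 CPM in HD-homo, against 21.1 and 17.7 CPM in control. The histone demethylase gene Kdm1a had a log2 fold change of 0.60 and the histone methyltransferase gene Ehmt2 of -0.78 (adjusted p = 0.0484 and 0.0148, edgeR). The call of Kdm1a was lost whichever library was left out and in DESeq2, and that of Ehmt2 without control replicate 1 or HD-homo replicate 1.

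Of 22 synaptic and secretory genes, 9 were tested, 5 were lower, 1 was higher and 3 did not pass (median -1.02), while 6 of the list had 0 counts in all 4 libraries. The calls were 66.7% of those tested, against 21.2% over all tested genes. With at least 10 counts in every library, 4 were lower and 1 was higher. Syn1, a protein of synaptic vesicles, was counted 14 and 22 times in HD-homo, against 103 and 104 in control (log2 fold change -2.38, standard error 0.35, adjusted p = 0.000181, edgeR). Nsg1 was at 6.77 and 6.94 CPM in HD-homo, against 22.5 and 19.8 CPM in control (-1.62, standard error 0.25, adjusted p = 0.00033, edgeR). Gap43, a growth cone protein, had 4 and 4 counts in HD-homo, against 33 and 37 in control. Dnm1, the dynamin of endocytosis, was the higher one, at 115 and 158 CPM in HD-homo, against 56.5 and 64.9 CPM in control (1.17, adjusted p = 0.00157, edgeR).

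Of 15 neurogenic transcription factor genes, 5 were tested, 2 were lower and 3 did not pass. With at least 10 counts in every library, 0 were lower. The called share was 40%, against 21.2% of all tested genes. Pou3f3 had 0 counts in HD-homo and 56 and 71 in control, at least 38.3-fold lower by the same floor (19.7-fold and 18.5-fold when HD-homo replicate 1 or 2 was left out). Sox11 had 1 and 1 counts in HD-homo, against 569 and 774 in control. Dlx2, a homeobox gene of the ventral forebrain, was at 69.7 and 28.0 CPM in HD-homo and 29.9 and 17.9 CPM in control, and its log2 fold change of 1.03 missed the threshold (adjusted p = 0.0661, edgeR). It passed without control replicate 1 or HD-homo replicate 2, and with all 4 libraries in DESeq2 (adjusted p = 0.0403) and in edgeR with no filter on low counts (adjusted p = 0.000615).

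**Figure D5:**
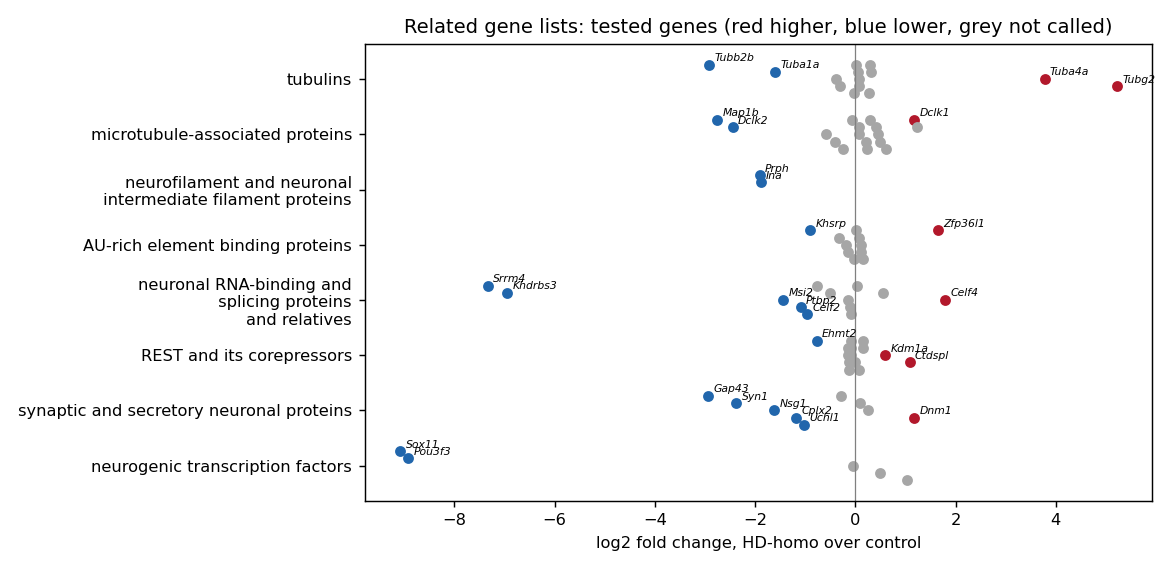
Log2 fold change of HD-homo over control for the tested genes of 8 related lists, each point 1 gene, red if called higher and blue if called lower at an adjusted p under 0.05 (edgeR), with called genes named. Lower genes outnumber higher ones among neuronal RNA-binding (5 against 1) and synaptic genes (5 against 1). With at least 10 counts in every library these were 3 against 1 and 4 against 1. The fitted values of genes with 0 counts in HD-homo, such as Srrm4 and Pou3f3, depend on the prior count of the fit.

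The 3 genes whose profile over the 4 libraries was nearest to that of Elavl2, the neuronal member with the lowest p, were Kif5c, Rxfp3 and Dock3, by the root mean square distance of centred log2 CPM. They were picked for this closeness, so their lower level in HD-homo follows from the choice. Whether they are regulated together was not tested. Kif5c, which encodes a neuronal kinesin heavy chain, was at 0.47 and 0.22 CPM in HD-homo, against 13.5 and 20.8 CPM in control, a distance of 0.16. Rxfp3, a relaxin-family peptide receptor, was at 0.08 and 0 CPM in HD-homo, against 4.24 and 7.75 CPM in control, a distance of 0.17. Dock3, a guanine nucleotide exchange factor of the nervous system, was at 0.16 and 0 CPM in HD-homo, against 5.94 and 6.50 CPM in control, a distance of 0.23.

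Markers of other cell types moved with these genes. Over all tested genes 10.4% were called higher and 10.9% lower. The 6 fibroblast markers summed to 5283 and 5166 CPM in HD-homo, against 924 and 1872 CPM in control, with 3 of 5 tested higher. The 6 neural progenitor markers summed to 3016 and 3737 CPM in HD-homo, against 4817 and 6330 CPM in control, with 3 of 5 tested lower. Most of that sum was Vim, an intermediate filament gene of many cell types, at 3007 and 3729 CPM in HD-homo and 4630 and 6077 CPM in control, which did not pass (log2 fold change -0.67, adjusted p = 0.075, edgeR) but did with library total scaling, with no filter, in DESeq2 and without HD-homo replicate 2. The lower markers were Nes, Sox2 and Pax6, with log2 fold changes of -5.44, -4.36 and -7.67. Fabp7, the other tested marker, went the opposite way and did not pass (0.83, adjusted p = 0.517, DESeq2). Of the 8 neuron markers given above 2 were tested, Syn1 and Gap43, and both were lower in the same libraries as Stmn2 and Elavl2. They are the same genes as in the synaptic list, and Syn1 held the most counts of the neuron markers. The part of these marker changes in the values of Stmn2 and Elavl2 was not tested.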

How the data were processed

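mRNA of polysome fractions was sequenced in 2 HD-homo and 2 control libraries. The submitters' processing notes name cutadapt, Bowtie 1.1.2, RSEM 1.3.0 and DESeq2 on GRCm38.p5. The authors deposited whole-number counts per gene, with the strand setting and any rounding not given in the sources used here. A second deposited table of signal holds these counts divided by a size factor per library, and 100% of its values came back as whole reads within 0.01. These reads equalled the deposited counts in 100% of values. Thus edgeR, run on them as an alternative chosen after seeing the data, was bound to call the same 2752 genes.

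The counts were TMM-scaled and fitted with edgeR 4.0.16 in R 4.3.3, after filterByExpr, by the quasi-likelihood method (common dispersion 0.0324, median biological coefficient of variation 17.8%). Standard errors were derived from the F statistic and can be too small at few counts. Totals of 12372090 to 15472808 counts set the precision. Locations come from GENCODE (GRCm38). Ratios had 0.5 counts added. The members and lists were chosen with earlier results of these data known. Named were all members, Tubb5, Map4, Rest, up to 4 genes of lowest p per list and the 3 nearest profiles; others were named after their values were seen. Alternatives covered scaling, filter, DESeq2 1.42.0, limma-voom 3.58.1, the replicate number as a block, thresholds and leaving out each library. The edgeR, DESeq2 and limma fits were checked on simulated data.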

Additional observations from a re-analysis of the deposited data

How the results depend on the processing

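Stmn2 stayed lower under every alternative run, with log2 fold changes of -3.44 to -2.57. With all 4 libraries its largest adjusted p was 6.53e-05 (edgeR, library total scaling). Elavl2 also stayed lower, at -6.92 to -4.97, with a largest adjusted p of 7.32e-05 (limma-voom, all 4 libraries). The exception was the setting with at least 10 counts in every library, where Elavl2 could not be tested, so that 1 member was lower. In that setting 815 genes were higher and 883 lower. Lower genes were then 3 in the neuronal RNA-binding list, 4 in the synaptic list and 0 in the neurofilament and neurogenic lists. The main filter lets a gene in through the group where it is high, so these list counts depend on the filter. With the replicate number as a block, 2126 genes were higher and 2350 lower, and no member's call changed. The block uses up most of the replication, so its p-values rest little on the spread between libraries. Under the block the higher microtubule-associated proteins were 3 instead of 1, Map4 (0.52, adjusted p = 0.00747, edgeR) and Mapre2 (0.62, adjusted p = 0.00178, edgeR) joining Dclk1, and Dlx2 passed as well (0.95, adjusted p = 1.45e-06, edgeR). The differences of replicate 2 minus replicate 1 in log2 CPM correlated at 0.39 between the groups over the 12961 tested genes. What the replicate number stands for is not given in the labels, so the main fit left the libraries unpaired. Leaving out each library gave log2 fold changes of -0.14 to 0.29 for Stmn1, -0.034 to 0.034 for Elavl1, -0.55 to 0.95 for Tubb3 and -0.56 to 0.15 for Map2. The Tubb3 value of 0.95 was that without control replicate 2, the only setting in which Tubb3 was called. The Elavl1 value was 0.0096 with library total scaling and 0.0017 with no filter on low counts. The ratio differences ran from -2.21 to 0.19 for Elavl3 over Elavl1 and from -2.13 to 0.11 for Elavl4 over Elavl1 when a library was left out. Of 208 list counts recomputed, 30 moved by over 1.5 times, and those on the recovered reads could not move. Low counts limit Stmn3, Stmn4, Elavl3 and Elavl4. The cause of these shifts was not tested.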

Other observations

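Markers of the oligodendrocyte lineage and of the microglia list were measured as well. The 8 oligodendrocyte lineage markers summed to 86.9 and 98.7 CPM in HD-homo, against 34.6 and 39.5 CPM in control. Of these 3 were tested and 2 were higher, against 10.4% called higher over all tested genes. Mbp, which encodes myelin basic protein, had 87 counts in HD-homo and 2 in control, a ratio of HD-homo over control of 48.1 (95% counting interval 12.9 to 404), and Pdgfra, a receptor of progenitor and mesenchymal cells, was the other higher gene. The 6 microglia markers summed to 28.3 and 26.1 CPM in HD-homo, against 39.8 and 42.1 CPM in control. Most of this sum was Tmem119, which did not pass (log2 fold change -0.66, adjusted p = 0.0511, edgeR), while Csf1r was called higher (1.68, adjusted p = 0.0229, edgeR), a call that was lost in DESeq2 and in 3 of the 4 fits with a library left out. The 6 astrocyte markers summed to 7.31 and 5.26 CPM in HD-homo, against 4.24 and 3.41 CPM in control. Of these 1 was tested, Slc1a3, which did not pass (0.93, adjusted p = 0.0669, edgeR) but did without HD-homo replicate 2 and with no filter on low counts. Nova1, a neuronal splicing protein that was not tested, went the other way from Elavl2. It had 14 and 6 counts in HD-homo and 0 in control, at least 7.37-fold higher with the floor of 3 counts in place of the control value, and 3.55-fold higher without control replicate 2.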
